A study of Homo sapiens with 6 samples.

Results

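The co-bound peaks far from gene ends are the sites at which PLAG1-S and USF2 peaks met away from the annotated boundaries of genes. A member is a clone 4 PLAG1-S peak that overlapped a clone 5 PLAG1-S peak by at least 1 bp, whose edge lay within 100 bp of a clone 4 USF2 peak also found in clone 5, on chromosomes 1 to 22 or X, and whose whole interval was more than 3 kb from both ends of every RefSeq gene of any type. There were 492 such peaks among 2078 co-bound peaks (23.7%, 95% Wilson interval 21.9% to 25.6%) and among 21330 reproducible PLAG1-S peaks. Of the 492, 317 lay within genes and 175 were intergenic. They paired with 489 distinct nearest clone 4 USF2 peaks, so a few PLAG1-S peaks share a USF2 peak. The Wilson intervals here cover counting error only, and peaks are not replicates of a condition.

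Chromatin was immunoprecipitated from K562 cells, a line from a human chronic myelogenous leukemia, made to overexpress both USF2 and a FLAG-tagged PLAG1-S. Clones 4 and 5 each gave 1 PLAG1-S library (anti-FLAG), 1 USF2 library (anti-USF2) and 1 input library, 6 samples in all. The immunoprecipitated libraries were labelled as 42.5 M single-end reads of 50 bp and the inputs as 55 M. Each of the lines is a clone, both factors were overexpressed in each of them, no library came from cells without the transgenes, and the merged inputs were the background of all 4 peak lists, so a value shared by all lists can also be shared through the inputs. The lists held 37574 and 29889 PLAG1-S peaks and 9338 and 4369 USF2 peaks in clones 4 and 5, and the weakest summit held 11 fragments in each.

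PLAG1 is a C2H2 zinc finger transcription factor that recognizes a G-rich core with a second G run a short spacer away, and PLAG1-S is its short isoform. USF2 is a basic helix-loop-helix leucine zipper factor that binds the palindromic E-box as a dimer and is known mostly from promoters. Binding sites inside genes or between them can be enhancers or can mark starts of further transcripts that a gene's outer boundaries do not show.

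The sequences shown come from members that sit on such an inner transcript start, because no genome sequence was used. The RefSeq start table (GRCh38.p14) gives 300 bases around each start, 250 before it and 50 after. Members away from such starts, among them the strong ones in PEPD, RAB3IL1 and IGF1R, could not be shown. These 5 stretches of 60 bases are from the members with the largest clone 4 PLAG1-S folds, after WDR81, whose window holds both the PLAG1-S summit and an E-box. They are written 5′ to 3′ on the plus strand, with the E-box CACGTG in capitals. They lie at chr12:49265003-49265062 (TUBA1C, an alpha-tubulin), chr5:179698957-179699016 (CANX, the endoplasmic reticulum chaperone calnexin), chr9:129626372-129626431 (NTMT1, an N-terminal methyltransferase), chr5:151447568-151447627 (SLC36A1, a lysosomal amino acid transporter) and chr9:6757915-6757974 (KDM4C, a histone demethylase).
TUBA1C: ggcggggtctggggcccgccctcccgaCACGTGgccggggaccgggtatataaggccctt
CANX: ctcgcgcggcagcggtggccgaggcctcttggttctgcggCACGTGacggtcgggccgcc
NTMT1: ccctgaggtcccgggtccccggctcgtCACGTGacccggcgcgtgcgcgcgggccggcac
SLC36A1: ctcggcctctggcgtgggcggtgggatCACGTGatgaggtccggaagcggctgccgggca
KDM4C: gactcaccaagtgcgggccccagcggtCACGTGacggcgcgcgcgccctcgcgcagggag

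The whole window is shown for WDR81, the strongest member at a start, with its E-boxes and its G-rich motif in capitals, and for DNMT3A, the DNA methyltransferase gene discussed in the study. WDR81, which encodes an endosomal WD-repeat protein, is shown at chr17:1724454-1724753 on the plus strand, and DNMT3A at chr2:25252266-25252565 on the minus strand. The G-rich motif searched was GGGGC or GAGGC, then 6 to 8 bases of any kind, then GGG, on either strand, so that in capitals it can also read from the opposite strand.
WDR81: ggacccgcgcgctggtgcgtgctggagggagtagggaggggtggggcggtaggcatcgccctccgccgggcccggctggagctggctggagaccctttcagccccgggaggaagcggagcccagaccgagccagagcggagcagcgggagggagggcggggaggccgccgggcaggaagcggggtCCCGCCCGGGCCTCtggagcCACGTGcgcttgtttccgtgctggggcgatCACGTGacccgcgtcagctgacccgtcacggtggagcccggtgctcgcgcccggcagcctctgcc
DNMT3A: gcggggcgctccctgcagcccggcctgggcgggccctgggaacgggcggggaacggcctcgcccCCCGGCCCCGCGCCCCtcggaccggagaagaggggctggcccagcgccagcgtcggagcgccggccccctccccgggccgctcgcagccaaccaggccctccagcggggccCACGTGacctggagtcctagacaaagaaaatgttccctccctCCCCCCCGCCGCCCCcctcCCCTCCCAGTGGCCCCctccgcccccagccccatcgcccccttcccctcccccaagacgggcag

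As a contrast, DGLUCY is the strongest member whose window lacks CACGTG. Its window, chr14:91114450-91114749 on the plus strand, also lacks the G-rich motif, and nothing is in capitals. It does hold the related site CACATG.
DGLUCY: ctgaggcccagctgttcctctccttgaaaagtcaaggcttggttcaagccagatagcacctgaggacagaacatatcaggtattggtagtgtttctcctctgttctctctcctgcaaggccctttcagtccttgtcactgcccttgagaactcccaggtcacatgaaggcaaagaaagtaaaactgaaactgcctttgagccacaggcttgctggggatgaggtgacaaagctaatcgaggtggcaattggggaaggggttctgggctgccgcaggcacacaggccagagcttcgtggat

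Co-binding was rarer far from gene ends than near them. Of 7950 reproducible PLAG1-S peaks far from gene ends, 492 met USF2, which is 6.19%, against 1586 of 13380 (11.9%, 11.3% to 12.4%) near a gene end. Counted from USF2, 505 of 622 far peaks (81.2%, 77.9% to 84.1%) had a PLAG1-S peak within 100 bp, against 1569 of 1736 (90.4%, 88.9% to 91.7%) near gene ends. USF2 peaks without PLAG1-S were thus a larger share far from gene ends than near them, but still a minority. A position far from gene ends was less common among co-bound peaks than among all reproducible PLAG1-S peaks (37.3%, 36.6% to 37.9%) and nearer to that of reproducible USF2 peaks (26.4%, 24.6% to 28.2%). These shares were not tested, because peak presence in these same lists is what the members were chosen by. For the same reason fold enrichment, the ratio of fragments at the summit to the local background of the inputs, is given as a description only.

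The location inside or outside genes did not set the members apart from other far peaks. Of the members, 64.4% (60.1% to 68.5%) lay within a gene, against 67.0% (65.8% to 68.1%) of the 6460 far PLAG1-S peaks with no USF2 peak in either clone and 64.8% (61.0% to 68.4%) of far USF2 peaks. Of the 317 within genes, 275 lay in a protein-coding gene. The distance to the nearest gene end ran from 3002 to 372952 bp with a median of 10144 bp, 10041 bp for within-gene and 10551 bp for intergenic members. Most were between 5 and 20 kb from a gene end, 178 of the within-gene and 102 of the intergenic peaks, as the plot of distances shows. In the coding hosts with a known strand, 43 of 228 peaks were in the first 20% of the gene and 30 in the last 20%, and the median peak was 25224 bp downstream of the host's start. For the intergenic members whose nearest coding gene has a known strand, the nearest end was the 5′ end in 62 of 129 (48.1%, 39.6% to 56.6%). Whether a peak lies in an exon or an intron was not analysed here.

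**Figure D1:**
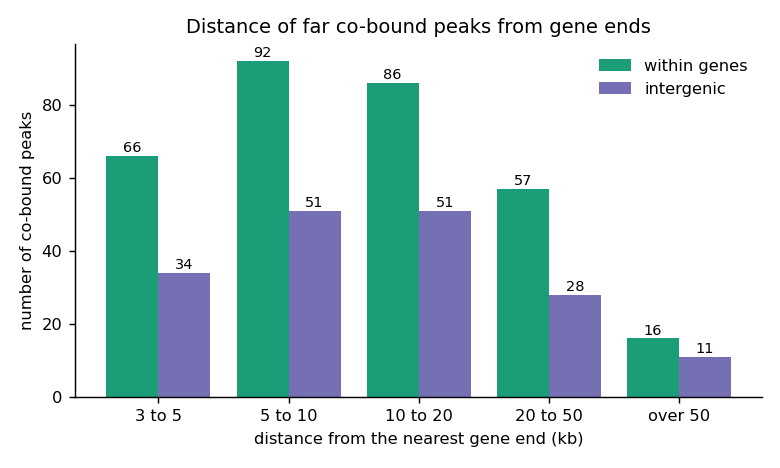
Number of far co-bound peaks (y axis) by distance from the nearest end of any RefSeq gene in kb (x axis), for within-gene and intergenic peaks, with the count over each bar. The 5 to 10 kb band is the fullest within genes, with 92 peaks, and 16 within-gene and 11 intergenic peaks lie beyond 50 kb.

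The 3 members just inside the 3 kb limit were weak peaks in regions of raised input background. The nearest inside lay 3002 bp from a gene end in BCR, then 3020 and 3036 bp in FAM78A, with clone 4 PLAG1-S folds of 3.17, 2.75 and 4.81. Just outside were peaks 2958 bp from an end of LINC00334, 2983 bp from DNAJB1 and 2989 bp from LOC105374370, with folds of 20.2, 9.58 and 12.8.

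Enrichment at the members was somewhat lower than at co-bound peaks near gene ends, in all 4 lists. PLAG1-S folds ran from 1.59 to 60.9 with a median of 16.4 in clone 4, and from 1.45 to 59.5 with a median of 11.6 in clone 5. USF2 folds ran from 1.51 to 35.2 (median 6.33) in clone 4 and from 1.62 to 21.7 (median 5.16) in clone 5. Near gene ends the medians were 20.1 and 15.6 for PLAG1-S, with 8.10 and 6.03 for USF2, with quartiles that overlapped those of the members. The far PLAG1-S peaks without USF2 were much weaker, with a clone 4 median of 6.26 (quartiles 4.84 and 8.43) against quartiles of 11.3 and 21.9 for the members, and they were narrower, 296 bp against 520 bp in the median. The members were selected on presence in all 4 lists, so these differences in strength are no support for anything further.

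Within-gene and intergenic members were nearly alike in strength. Median folds were 16.8 and 16.1 for PLAG1-S in clone 4 and 11.6 and 11.4 in clone 5, and 6.30 and 6.53 for USF2 in clone 4 and 5.17 and 5.14 in clone 5. Strength varied little with distance up to 20 kb. The median clone 4 PLAG1-S fold of within-gene members was 16.6 at 3 to 5 kb, 17.0 at 10 to 20 kb, 14.2 at 20 to 50 kb and 17.4 beyond 50 kb, and that of intergenic members 17.1, 16.4 and 12.3 over the first 3 of these bands. The 11 intergenic members beyond 50 kb had a median of 1.89, and 6 of these 11 lay in regions of raised local background, against 1 of the 16 within-gene members beyond 50 kb. The other 5 had folds of 11.4 to 18.5 with a median of 15.5, within the range of the nearer bands.

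Both clones ranked the members alike, with higher folds in clone 4. The Spearman correlation between the clones across the 492 members was 0.91 for PLAG1-S and 0.82 for USF2, and between the factors 0.78 in clone 4 and 0.70 in clone 5. Across the 428 members without the raised local background described further on, it was lower. It was 0.88 for PLAG1-S and 0.75 for USF2 between the clones, and 0.70 in clone 4 and 0.61 in clone 5 between the factors. These describe peaks that share the inputs and the local background, and peaks are not independent samples. PLAG1-S fold was higher in clone 4 at 429 of 492 members and USF2 fold at 381. The summit fragment count of PLAG1-S exceeded that of USF2 at 476 members in clone 4 and 473 in clone 5, with medians of 84.5 and 60 fragments for PLAG1-S, with 34.5 and 26.5 for USF2. These counts come from separate immunoprecipitations and do not compare occupancy.

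PLAG1-S and USF2 summits lay near each other, at a median distance of 17 bp (quartiles 7 and 39 bp) in clone 4 and of 21 bp in clone 5, against 14 bp in clone 4 for co-bound peaks near gene ends. Summits were within 50 bp of each other at 400 of 492 members (81.3%, 77.6% to 84.5%) and 82.5% (80.6% to 84.3%) of near co-bound peaks. Within 10 bp they were at 32.3% (28.3% to 36.6%) of members and 40.2% (37.8% to 42.7%) of near peaks. Both factors' summits also moved between clones, by a median of 13 bp for PLAG1-S and 19 bp for USF2, so the distance between the factors is about as large as the shift of a summit between clones. At 39 members the summits were more than 100 bp apart.

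The strongest members inside genes had both factors at high fold in both clones. In RAB3IL1, a gene for an exchange factor of Rab GTPases (chr11:61917147-61917879), the PLAG1-S fold was 52.0 in clone 4 and 44.5 in clone 5, and the USF2 fold 30.03 and 20.96. In WDR81 (chr17:1724328-1725326) these folds were 47.4 and 35.6 for PLAG1-S, with 26.6 and 16.8 for USF2. The insulin-like growth factor receptor gene IGF1R (chr15:98865215-98865818) followed with 41.1 and 29.4 for PLAG1-S, with 23.9 and 21.7 for USF2. Clone 4 was above clone 5 in each of these pairs.

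The next members show that the balance of the factors varied. COLEC11, a collectin gene, had PLAG1-S folds of 38.7 and 27.8 and USF2 folds of 22.7 and 17.0 in clones 4 and 5, and PTP4A3, a tyrosine phosphatase gene, 40.3 and 35.0, and 20.03 and 15.8. PEPD, the prolidase gene, had the lowest ratio of ranks, at rank 3 among all clone 4 PLAG1-S peaks and rank 271 among USF2 peaks. The opposite extreme was BRD2, a bromodomain gene, at rank 33173 among PLAG1-S peaks and rank 1679 among USF2 peaks. It had PLAG1-S folds of 3.76 and 3.02 and USF2 folds of 6.15 and 3.79, and its PLAG1-S and USF2 summits lay 398 bp apart. By USF2 fold the within-gene members also included ZBTB40, a zinc finger gene, at 25.3 and 16.7, NAA60, an N-terminal acetyltransferase gene, at 21.8 and 15.1, and GGA2, a Golgi adaptor gene, at 17.2 and 11.7. Of these, ZBTB40 lay in a region of raised background, of 7.51 fragments.

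Between genes, the strongest members were about as enriched in clone 4 as those inside genes. The largest PLAG1-S fold was 60.3 between genes and 60.9 inside genes in clone 4, but 40.6 and 59.5 in clone 5. Inside genes both values were those of the peak in PEPD. Between genes they were not from the same peak, since the 40.6 in clone 5 was that of the ZBTB42 peak given below. The peak nearest CD300LB, a receptor gene of myeloid cells, at 5905 bp, had the largest clone 4 USF2 fold of all members, 35.2, against 20.3 in clone 5. The peak near ZBTB42, a zinc finger gene 10710 bp away (chr14:104815422-104816371), had PLAG1-S folds of 41.1 and 40.6 and USF2 folds of 22.4 and 17.6 in clones 4 and 5. Near ARRDC2, an arrestin-domain gene (chr19:18021920-18022767), the PLAG1-S folds were 38.6 and 24.9 and the USF2 folds 18.7 and 11.3, with both summits at the same base. In each of these the fold was higher in clone 4, by little for PLAG1-S at ZBTB42.

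Other intergenic members were among the strongest by PLAG1-S or USF2 fold in clone 4. The peak nearest MICALL2, a Rab13 effector gene 10991 bp away, had PLAG1-S folds of 46.1 and 37.9 and USF2 folds of 12.0 and 7.54. The one nearest CD83, a surface marker of mature dendritic cells, was 73722 bp from that gene and had 37.1 and 33.5 for PLAG1-S, with 10.6 and 7.07 for USF2. DYNC1H1, the dynein heavy chain gene, lay 15827 bp from a peak with 34.6 and 25.9, and 17.9 and 15.7. Of these 3 peaks, the one at DYNC1H1 had the lowest PLAG1-S folds and the highest USF2 folds in both clones. By USF2 fold, the peaks nearest CCNE1, the cyclin E1 gene, MAP2K3, a kinase of the p38 pathway, and PGPEP1, a peptidase gene, also stood out, at 21.0, 19.7 and 19.0 in clone 4 and 13.8, 14.2 and 14.2 in clone 5. The nearest coding gene is given for position only.

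**Figure D2:**
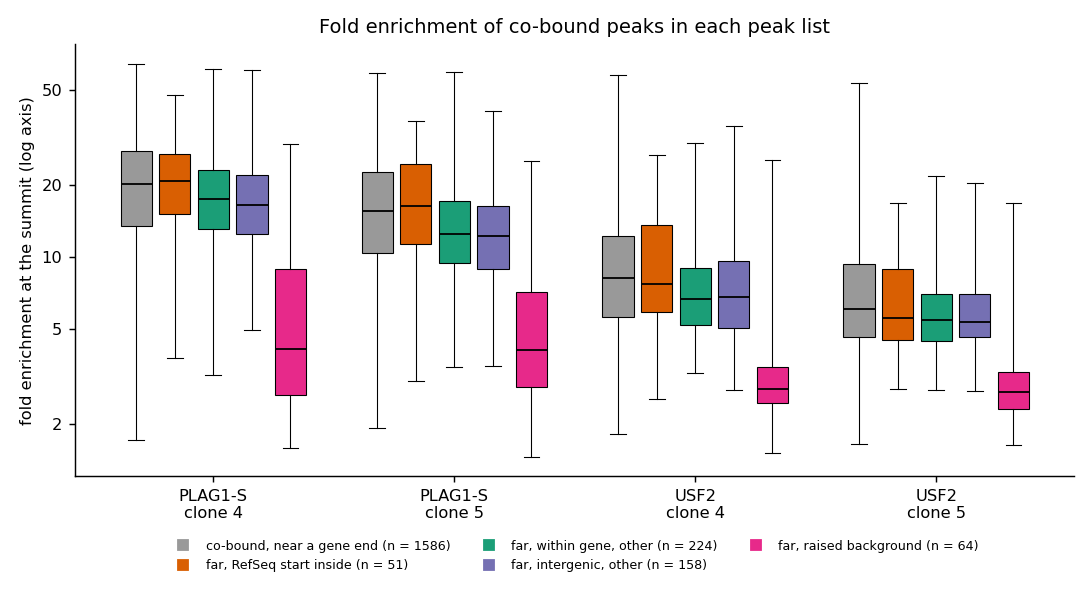
Fold enrichment at the summit (y axis, log) in each of the 4 peak lists (x axis), for co-bound peaks near a gene end and for far co-bound peaks split into those that hold a RefSeq transcript start, the remaining within-gene and intergenic ones, and those of raised local background. Boxes are quartiles with the median and whiskers run from the lowest to the highest peak, and 5 peaks are in both the start and the raised background class. The start class sits at a clone 4 PLAG1-S median of 20.8, the within-gene and intergenic classes at 17.4 and 16.4, and the raised class at 4.12.

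Being far from gene ends did not mean being far from every transcript start. The gene table gives each gene 1 interval, while the start table lists further starts inside genes. On the chromosomes of that table, 51 of 480 members (10.6%, 8.17% to 13.7%) held a RefSeq transcript start in their interval. All of them were within-gene members, which the rule fixes in advance, since a start lies inside its gene. For within-gene members the share was 16.3% (12.7% to 20.9% of 312). Among far PLAG1-S peaks without USF2 the share was 2.93% (2.54% to 3.38%, 182 of 6209), and among near co-bound peaks 60.0%. The 12 members on chromosome 8, for which the table has no starts, were not counted. The label of these peaks therefore holds for the outer ends of genes, and for about 1 in 10 of them not for the starts of all transcripts.

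The members with a start inside had higher median folds and were wider than the rest. Their median folds were 20.8 and 16.3 for PLAG1-S, with 7.68 and 5.53 for USF2 in clones 4 and 5. Members with neither a start nor raised background (382 peaks) had 17.1 and 12.4, and 6.68 and 5.41, so that the quartiles of both sets overlapped in every list. Median width was 764 bp against 508 bp. The summit lay a median of 45 bp upstream of the start. Of the strongest 10 within-gene members, WDR81, TUBA1C, CANX and NTMT1 held a start, with PLAG1-S folds in TUBA1C of 37.9 and 26.3, in CANX of 37.8 and 30.04 and in NTMT1 of 37.1 and 29.5. Their USF2 folds were 15.9 and 8.96, 15.2 and 7.76, and 18.4 and 10.8. USF2 fold was higher in clone 4 at each of these. SLC36A1 and KDM4C, whose sequences are also shown, had PLAG1-S folds of 35.8 and 29.8, and 34.2 and 36.8, so KDM4C was higher in clone 5.

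The E-box was in most start windows at these summits, and it lay at the summit. A RefSeq start window held the clone 4 PLAG1-S summit of 39 members, and 33 of these windows (84.6%, 70.3% to 92.8%) held CACGTG. Over the whole start table, with 34943 windows, the share was 7.23%. The share was 83.7% (80.8% to 86.3%) in 713 windows at near co-bound peaks and 14.4% (12.9% to 15.9%) in 2153 windows at PLAG1-S peaks of any position without USF2 in either clone. The flanked form GTCACGTG, searched on both strands like every motif here, was in 23 windows of members (59.0%, 43.4% to 72.9%), in 56.7% of near co-bound windows, in 3.81% of windows without USF2 and in 2.39% of all windows. The near co-bound shares of both forms lay inside the intervals of the far co-bound windows, and the shares without USF2 lay below them.

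The G-rich motif was not more common in windows with USF2 than in those without. It was in 22 of 39 member windows (56.4%, 41.0% to 70.7%), in 50.5% (46.8% to 54.1%) of near co-bound windows and in 58.4% (56.3% to 60.4%) of windows at PLAG1-S peaks without USF2, against 32.2% of all windows. The member interval held both other shares, and the near co-bound share lay below that without USF2, with intervals that did not overlap. Both motifs were in 19 member windows (48.7%, 33.9% to 63.8%), and neither was in 3. Base composition was alike, with a median of 68.7% G or C in the member windows, 69.0% at near co-bound peaks and 70.0% without USF2, and 58.7% over all windows. A match is a run of letters in a window of fixed place, and the 453 members with no start window at the summit were not searched.

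Position separated the motifs further. The centre of the nearest E-box lay a median of 6.5 bp from the PLAG1-S summit (quartiles 3.5 and 12.5 bp), within 25 bp in 32 of 33 windows. From the USF2 summit it lay 10.5 bp (4.5 and 23.5 bp), within 25 bp in 25 of 33. The nearest G-rich motif was 56 bp from the PLAG1-S summit (31 and 93.3 bp), within 25 bp in 5 of 22 windows. In the median the E-box was thus closer to the PLAG1-S summit than this G-rich motif was. The searches are unlike, since the looser G-rich pattern was in 32.2% of all start windows and the E-box in 7.23%. The windows were also chosen by a USF2 peak near the PLAG1-S peak, so the order of the distances is a description only.

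Near co-bound peaks had the same order, with medians of 7.5 bp for the E-box and 50 bp for the G-rich motif. At PLAG1-S peaks without USF2 the E-box, where present, lay at 17.5 bp and the G-rich motif at 45.5 bp. In the shown windows, the E-box was 0.5 bp from the PLAG1-S summit in TUBA1C, 1.5 bp in CANX, 2.5 bp in NTMT1 and 13.5 bp in WDR81, and the exception among the 33 was UVSSA, at 82.5 bp.

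**Figure D3:**
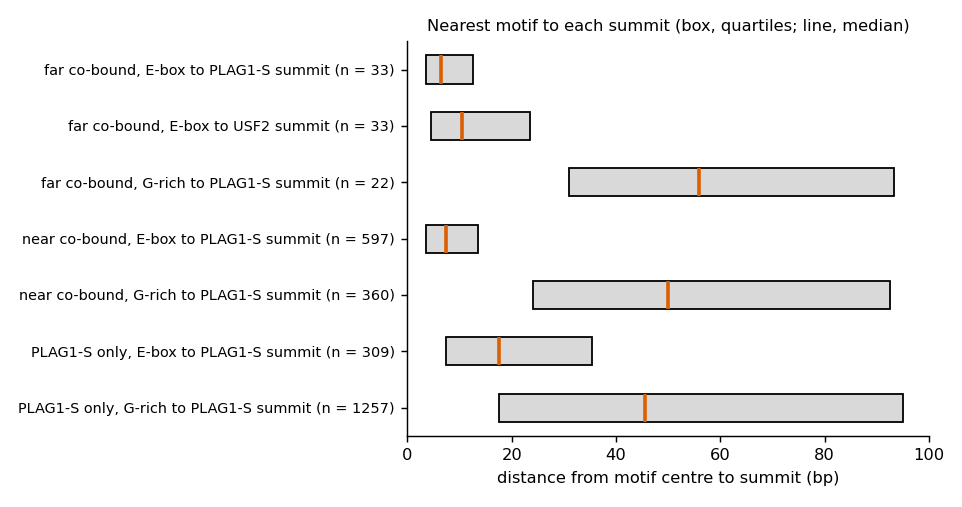
Distance from the centre of the nearest motif to the summit in bp (x axis) for each set of start windows (y axis), with boxes for the quartiles and a line for the median. At far co-bound peaks the E-box box ends at 12.5 bp from the PLAG1-S summit, while the G-rich box begins at 31 bp.

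The members with an E-box had the higher median folds. Over the 33 windows with the E-box, the medians were 22.8 and 18.5 for PLAG1-S, with 9.41 and 7.04 for USF2 in clones 4 and 5, against 18.7 and 14.7, and 6.13 and 4.54, over the 6 windows without. The ranges overlapped in each list. The 6 windows without were those of DGLUCY, HNRNPF, PHF19, CUL4B, CROCC and RTN4, and DGLUCY was the strongest, with PLAG1-S folds of 25.6 and 22.2 and USF2 folds of 10.0 and 8.66.

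Some genes that host a member carried a co-bound peak at an end as well. An end of the host gene had a co-bound peak within 3 kb at 54 of 275 members in coding genes (19.6%, 15.4% to 24.7%). For far PLAG1-S peaks without USF2 in coding genes the share was 10.9% (9.95% to 11.9%, 416 of 3815), and over all coding genes 8.63%. Of these 54 members, 24 had the raised local background described further on, among them all 8 in LAMC3, all 6 in RSPH14 and all 4 in FIBCD1. Without raised background the shares were 30 of 232 (12.9%, 9.21% to 17.9%) for the members and 355 of 3676 (9.66%, 8.74% to 10.7%) for the far PLAG1-S peaks without USF2, and these intervals overlapped. PEPD, IGF1R, PTP4A3 and BRD2 were among the hosts. Members that share a host were counted each, and the length of the host was not matched. For intergenic members the nearest coding gene had such a peak at 24 of 175 (13.7%, 9.39% to 19.6%).

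Genes with several members fell into 2 kinds. GSE1, a coiled-coil protein gene, held 4 members with clone 4 PLAG1-S folds of 17.6 to 27.7 and USF2 folds of 4.10 to 12.4, and GALNT2, an enzyme that starts O-linked glycosylation, held 3, with 14.4 to 29.999 and 4.79 to 8.06. Neither had raised background. LAMC3 with 8, RSPH14 with 6, FAM78A and GNAZ with 5 each and FIBCD1 with 4 had raised background at every member, with clone 4 PLAG1-S folds of 2.42 to 13.3. RSPH14 and GNAZ overlap and share members. Of the 8 groups with 3 or more members within 50 kb of each other, those without raised background were a group of 3 near MICALL2 and in INTS1 on chromosome 7, with PLAG1-S folds of 16.0 to 46.1 and USF2 folds of 10.2 to 12.0, and a group of 3 on chromosome 21, at least 545504 bp from its nearest coding gene LOC101927345, with 4.91 to 9.75 and 2.82 to 5.52. The groups of raised background included the ones at RSPH14, FIBCD1, LAMC3 and FAM78A and 3 members on chromosome 16 nearest SHCBP1.

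A raised local background moved with low fold at part of the members. The local background of the merged inputs was called raised when it was over 7.34 fragments at the PLAG1-S summit in clone 4, 2 times the list median of 3.67. This held for 64 members (13.0%, 10.3% to 16.3%), 6.94% of near co-bound peaks and 3.82% of far PLAG1-S peaks without USF2. Of the 64, 18 lay around BCR on chromosome 22 and 22 around ABL1 on chromosome 9, the loci joined by the BCR-ABL1 fusion that K562 cells carry, with median backgrounds of 14.9 and 16.9 fragments. The other 24 lay elsewhere, 11 of them with a background above 30. The member farthest from any gene, chr3:93470359-93470812 at 372952 bp, had a background of 165 fragments and folds of 1.73 and 1.82 for PLAG1-S, with 1.72 and 1.74 for USF2.

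The members of raised background had low folds in all lists, with medians of 4.12 and 4.05 for PLAG1-S, with 2.78 and 2.71 for USF2 in clones 4 and 5, while the other 428 had 17.4 and 12.7, and 6.80 and 5.41. A high background lowers the fold by construction. Their folds were nearly equal in both clones, with a median ratio of clone 5 to clone 4 of 0.969 for PLAG1-S against 0.750 for the others. Summits were more than 100 bp apart at 16 of 64 (25%, 16.0% to 36.8%) against 23 of 428 (5.37%, 3.61% to 7.93%). The part of the background in the summit distances was not tested.

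Among 6 lists of genes, the members were few in each. The lists are small, and the members' counts describe where they lie. DNA methylation and chromatin genes were the host or the nearest coding gene of 8 members (1.63%, against 0.557% of far PLAG1-S peaks without USF2), lipid and sterol genes of 5 (1.02% against 0.325%), and clock and MYC network genes of 4 (0.813% against 0.232%). Cytokine, JAK-STAT and RAS signalling genes had 4 (0.813% against 0.511%), blood transcription factors 3 (0.610% against 1.21%) and lysosome and autophagy genes 1 (0.203% against 0.402%).

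In the chromatin list, the within-gene members lay in KDM4C, a histone H3 lysine demethylase, in DNMT3A (30.8 and 24.4 for PLAG1-S, 15.0 and 11.1 for USF2), in CBX7, a Polycomb subunit, and in ARID1A, a SWI/SNF subunit. CBX7 had PLAG1-S folds of 21.1 and 21.4 and USF2 folds of 12.4 and 12.5, nearly equal in both clones, while ARID1A had 9.39 and 7.43, and 3.17 and 3.02, at a raised background of 8.05 fragments. Intergenic ones were nearest NSD1, a histone methyltransferase, with 21.7 and 21.0, and 10.7 and 10.3, and nearest JARID2, a PRC2 partner, 445820 bp away, with 15.5 in clone 4. Clone 4 PLAG1-S folds in this list ran from 9.39 at ARID1A to 34.2 at KDM4C.

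In the clock and MYC list, the strongest was the peak 5045 bp from BHLHE41, itself an E-box-binding repressor of the circadian clock, with PLAG1-S folds of 33.2 and 29.0 and USF2 folds of 17.3 and 12.6 in clones 4 and 5. MGA, a MAX partner gene, held a peak of 27.4 and 18.8, and 10.4 and 7.21. NR1D1, a nuclear receptor that represses clock genes, lay 7485 bp from a peak of 22.3 and 17.4, and 8.37 and 5.53. RORA, which activates the same targets, held the weakest of the 4, with 13.6 and 11.0, and 4.29 and 4.25. PLAG1-S fold was higher in clone 4 at all 4.

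In the lipid list, PPARGC1B, a transcriptional coactivator gene, held a peak with PLAG1-S folds of 33.6 and 28.7 and USF2 folds of 7.43 and 3.94. CPT1A, which carries fatty acids into mitochondria, held 2 peaks 4419 and 3060 bp from an end, of 25.9 and 20.6, and of 12.9 and 12.4, for PLAG1-S. LPIN1, a phosphatidate phosphatase, had 16.8 and 14.1, and the peak nearest PPARG, the adipocyte nuclear receptor, 10.1 and 6.54. The order of these peaks by clone 4 PLAG1-S fold was kept in clone 5.

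The remaining lists held members over much of the fold range. The blood factor genes were the nearest coding genes of intergenic peaks, TCF3 with 25.1 and 16.7 for PLAG1-S, IRF8 with 16.6 and 10.2 and CEBPA with 12.1 and 7.50. PTPN1, a tyrosine phosphatase of cytokine receptor signalling, was nearest to 2 peaks of 16.6 and 13.5, and of 14.3 and 8.09, the first with a clone 4 USF2 fold of 14.0. BCR held the one of 3.17 and 4.44, at a background of 18.2 fragments.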

How the data were processed

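ChIP-seq peak lists of 2 clones (4 and 5) for PLAG1-S and USF2 were used. Per the labels and the study's methods, the authors ran MACS2 on hg38, library by library, with the inputs merged as control, and the submitters' processing notes name HISAT2 2.0.4. The MACS2 version is not given in the sources used here. The fold deposited by the authors is a ratio at the summit to the local background, and they also deposited the −log10 of p and q, and a score. Fold, −log10 p and −log10 q were used as deposited. Summit fragments and local background were computed back from fold and −log10 p, within 0.001, for 100% of peaks. They stand in for depth, since totals per library are not in the lists.

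The members and the gene lists were chosen with earlier results of these data known. Reproducible peaks overlap between clones by at least 1 bp and keep clone 4 coordinates. Genes came from RefSeq GRCh38.p14 (59098 genes, 19974 of them coding), 1 interval each. Named peaks were those with the largest clone 4 folds of either factor, 10 within genes and 6 between genes, those at listed genes, genes or 50 kb groups with 3 or more members, those next to the 3 kb limit, the farthest, the rank extremes, and DNMT3A. Some peaks that this rule names are not reported here. The E-box and G-rich motif were to be searched around every summit. A genome sequence was not used here, so the motifs were searched in RefSeq start windows, a choice made after seeing the data, like the sequences shown. Alternatives were other clones, thresholds and distances. No test was run, since the members were chosen by these values. Intervals are 95% Wilson intervals of shares. The tools were Python 3.11.15, numpy 2.4.6, scipy 1.17.1, pandas 2.3.3, statsmodels 0.14.6 and matplotlib 3.10.9. The member search and the recovery were tested on simulated data.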

Additional observations from a re-analysis of the deposited data

How the results depend on the processing

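The number of members depended most on the lists used. With both clones required there were 492, and with clone 5 alone and clone 4 alone there were 725 and 1586. Requiring a −log10 q of at least 10 in each list left 178, and 10 kb in place of 3 kb left 249. The other 11 alternatives for the number stayed within 1.5 times, from 392 at 5 kb to 725. Leaving out the peaks of raised local background, an alternative chosen after seeing the data, left 428 and lowered the share of coding hosts with a co-bound peak at an end from 19.6% to 12.9%. The share within genes was 66.5% to 67.0% with 1 clone alone and fell to 46.5% when only protein-coding genes counted, since fewer genes can then hold a peak. Clone 5 coordinates gave a median summit distance of 21 bp and median folds of 11.4 for PLAG1-S and 5.17 for USF2. A −log10 q of at least 10 gave 12 bp, 23.5 and 10.0, and the other 3 alternatives for these medians moved each by less than the SD between clones. The E-box share was 63.0% in the 54 windows that a member overlapped anywhere, and the G-rich core alone was in 97.4% of windows. No paired analysis was possible because the results come from no test. The planned motif searches around each summit were not run for want of a genome sequence. Depth limits the weak end, where the USF2 summits of clone 5 held as few as 13 fragments.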
